A study of Mus musculus with 12 samples.

Results

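The SLC25 family holds the carriers of the mitochondrial inner membrane, and its members were taken here as every gene of the count table whose symbol is Slc25a followed by a number, pseudogenes left out. This gave 47 of 56748 genes, together with the splicing events of the same genes, which were 40 of 19323 events in 18 members. RNA was sequenced from G1E-ER4 cells after 24 h of estradiol, in 3 libraries of Sf3b1 K700E/+ cells and 3 libraries of Sf3b1 +/+ cells. G1E-ER4 is a murine proerythroblastic line without endogenous GATA1 that expresses GATA1 fused to the estrogen receptor ligand-binding domain, so that estradiol switches on erythroid maturation, and all 6 libraries share this background and treatment. The K700E allele was placed in the splicing factor gene Sf3b1 by CRISPR-Cas9 with a repair template, a hygromycin cassette used for selection in both genotypes was excised, and each genotype is 1 clone. Differences between the genotypes therefore cannot be told apart from differences between the 2 clones. The labels do not say that the libraries of a genotype came from separate cultures, so p-values measure only the spread between these libraries.

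Carriers of this family share a fold of repeated membrane-spanning modules and exchange small solutes between cytosol and matrix: nucleotides, phosphate, keto acids, amino acids, cofactors and iron. A few work elsewhere, such as Slc25a17 in peroxisomes and Slc25a46 in the outer membrane. In erythroblasts the family is best known for heme synthesis, because iron enters the matrix through the mitoferrins Slc25a37 and Slc25a28, glycine for the first step enters with the help of Slc25a38, and glutathione needed for iron-sulfur proteins enters through Slc25a39 and Slc25a40.

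Total counts ran from 38785471 to 50077827 per library. The erythroblast markers Tfrc, Epor, Klf1, Slc4a1 and Hba-a1 were present in every library, and all 15 markers of that list in the table passed the filter on low counts. Of the markers of other blood cells, the granulocyte and macrophage list summed to 1.47 to 2.07 CPM in Sf3b1 K700E/+. In +/+ it summed to 13.7 to 40.4 CPM, and Elane, Ly6g, Ctsg and S100a8 were at 0 throughout. All 5 tested genes of the 17 in that list were lower in Sf3b1 K700E/+, as were 23.1% of all tested genes at an adjusted p under 0.05. Among them Lyz2, Cybb, Mmp8 and Adgre1 had 0 to 5 reads per Sf3b1 K700E/+ library. These genes passed the filter on low counts through +/+ alone and could only be called lower. CPM, the unit of level used throughout, is a gene's count set against its library's total after scaling by TMM (trimmed mean of M values). The mast cell, basophil and eosinophil list summed to 26.7 to 54.3 against 79.5 to 110 CPM, with Mcpt8 and Tpsb2 at 0. Of its 6 tested genes 4 were lower, among them Epx, which had 0 reads in Sf3b1 K700E/+ and passed the filter through +/+ alone. The megakaryocyte list summed to 10.5 to 19.6 against 17.6 to 29.1 CPM with none of 5 tested genes past the threshold (adjusted p of at least 0.0856), and the lymphoid list, too low to test, was at 0 in Sf3b1 K700E/+ and at 0.0488 to 0.197 CPM in +/+. The part of these other markers in the carriers' values was not tested. In both genotypes the library numbered 1 stood apart from the other two, the chi-square over its degrees of freedom being 21.8 to 32.6 against it and 7.42 to 9 between the others.

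Of the 47 members, 36 passed the filter on low counts and were tested among 12547 genes. In bulk RNA, fewer cells of a kind and less RNA per cell cannot be told apart. At an adjusted p under 0.05, 9 members were higher in Sf3b1 K700E/+ (Slc25a47, Slc25a37, Slc25a22, Slc25a39, Slc25a1, Slc25a40, Slc25a17, Slc25a25 and Slc25a30) and 7 were lower (Slc25a36, Slc25a20, Slc25a23, Slc25a45, Slc25a33, Slc25a16 and Slc25a46). These 16 members are 44.4% of those tested, and 44.4% of all tested genes passed the same threshold, so the share of carriers that changed was that of the transcriptome. By direction, 25% of tested members were higher against 21.3% of all genes, and 19.4% were lower against 23.1%. Only Slc25a36 and Slc25a47 also passed a 2-fold change, 5.56% of tested members against 10.3% of all genes. The median log2 fold change was 0.02 over the tested members and -0.01 over all tested genes, and the median absolute log2 fold change was 0.24 and 0.27. The 3 libraries of one genotype lay outside the range of the other for 21 of the 36 members (58.3%, against 54.3% of all genes). With the replicate number as a block, a fit in which 56.9% of all genes passed, 22 members passed the threshold, the 16 above and Slc25a5, Slc25a15, Slc25a32, Slc25a35, Slc25a38 and Slc25a51.

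**Figure D1:**
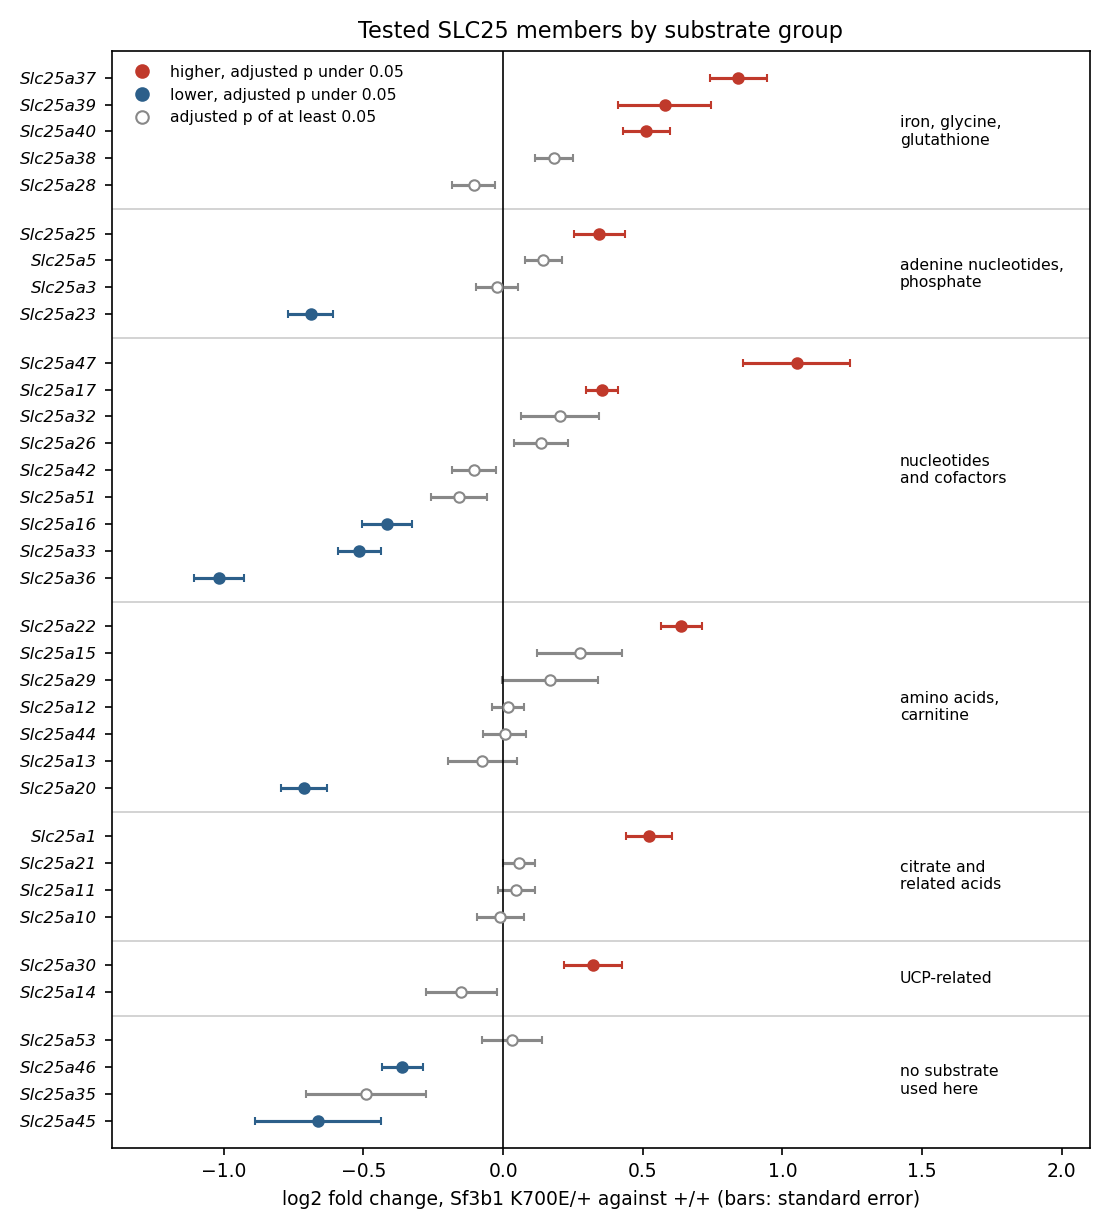
Difference between the genotypes for the tested SLC25 members, 1 of the 36 not drawn, ordered by substrate group. The horizontal axis is the log2 fold change of Sf3b1 K700E/+ against +/+, bars are standard errors, and filled points passed an adjusted p under 0.05 (9 higher, 7 lower). Slc25a47 at 1.05 and Slc25a36 at -1.02 lie at the 2 ends.

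The family differed by a factor of 1818 in level between its most and least abundant tested members, measured as CPM per kb of exon over all 6 libraries. The ADP/ATP carrier Slc25a5 led at 477 CPM per kb and made up 20.6% of the summed CPM of the family. Slc25a37 followed at 129, Slc25a39 at 125, the phosphate carrier Slc25a3 at 97.5 and Slc25a38 at 49.3 CPM per kb, so that 3 of the 5 highest members belong to the iron, glycine and glutathione group. This order pools the genotypes, and in +/+ alone Slc25a37 (92.3 CPM per kb) stood below Slc25a39 (100.1) and Slc25a3 (98.2), while in Sf3b1 K700E/+ it stood above both at 165 CPM per kb. Their partners were far lower in the order, Slc25a28 in position 17 at 9.45 and Slc25a40 in position 28 at 2.13 CPM per kb. Summed over all 47 members, the libraries held 3890, 4154 and 4386 CPM in Sf3b1 K700E/+ and 3541, 3429 and 3530 CPM in +/+. Every Sf3b1 K700E/+ library was above every +/+ library, a difference of 0.24 on the log2 scale with a two-sided exact permutation p of 0.1, which is the smallest that 3 against 3 libraries can give. The summed CPM of all tested genes was separated in the same way, at 998736 to 1029380 in Sf3b1 K700E/+ against 977023 to 992522 in +/+. Slc25a37 and Slc25a39 together account for most of the gap in the family sum, with means of 996 and 412 CPM in Sf3b1 K700E/+ against 556 and 276 CPM in +/+.

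**Figure D2:**
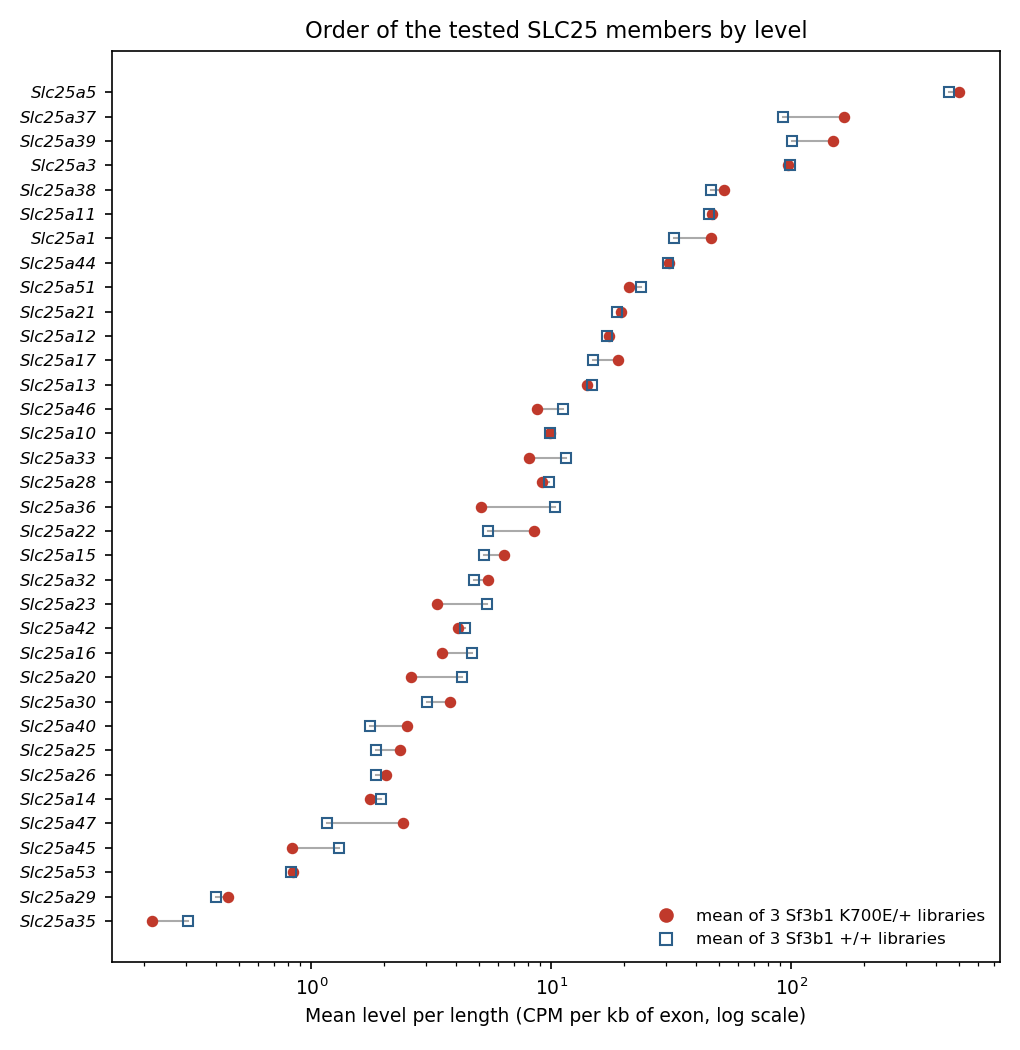
Order of the tested SLC25 members by level, 1 of the 36 not drawn. The horizontal axis is the mean CPM per kb of exon on a log scale, with a filled circle for the 3 Sf3b1 K700E/+ libraries and an open square for the 3 +/+ libraries. Slc25a5 stands at the top and Slc25a35 at the bottom, and the genotypes lie farthest apart for Slc25a36 and Slc25a47.

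Of the 5 carriers of iron, glycine and glutathione, 3 were higher in Sf3b1 K700E/+ and 2 did not pass. The share called was 60%, in a group of only 5, against 44.4% of all tested genes, of which 21.3% were higher. Slc25a37, mitoferrin-1 and the main iron importer of erythroblast mitochondria, had 846, 1027 and 1114 CPM in the 3 Sf3b1 K700E/+ libraries and 521, 547 and 599 CPM in the 3 +/+ libraries. The groups did not overlap, and the log2 fold change was 0.84 with a standard error of 0.10 (adjusted p = 0.000201). Its paralog Slc25a28, mitoferrin-2, which serves most other tissues, had 35.6, 35.6 and 31.2 CPM against 36.1, 38.4 and 35.7 CPM. Here the Sf3b1 K700E/+ libraries were at or just under the +/+ libraries (log2 fold change -0.11, standard error 0.08, adjusted p = 0.290). Within each library the ratio of Slc25a37 to Slc25a28 per length was 14.8, 17.9 and 22.3 in Sf3b1 K700E/+ and 8.98, 8.87 and 10.5 in +/+. The mean ratio was 18.3 ± 3.74 against 9.44 ± 0.884 (SD, n = 3 each), with an exact permutation p of 0.1, the smallest possible.

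The glutathione carrier Slc25a39 had 306, 436 and 495 CPM in Sf3b1 K700E/+ and 231, 301 and 296 CPM in +/+. The lowest Sf3b1 K700E/+ library was just above the highest +/+ library, and in each genotype the library numbered 1 was the lowest (log2 fold change 0.58, standard error 0.17, adjusted p = 0.0201). Without replicate 2 or replicate 3 of Sf3b1 K700E/+ the adjusted p was 0.0627 and 0.0730. Alas2, which begins heme synthesis and is an erythroblast marker, had the same order of libraries in Sf3b1 K700E/+, with 190, 328 and 360 CPM, and was also lowest in the library numbered 1 of +/+, with 150, 232 and 222 CPM (log2 fold change 0.54, adjusted p = 0.0889). The globins of that marker list were also lowest in the library numbered 1 of each genotype, but their log2 fold changes were negative. They were -1.66 for Hbb-bt (adjusted p = 0.00501), -0.58 for Hbb-bs, -0.18 for Hba-a2 and -0.15 for Hba-a1, and only Hbb-bt passed. Of the 15 tested erythroblast markers, 2 were higher and 2 lower (26.7%, against 44.4% of all genes). The part of erythroid stage in the values of Slc25a39 and these markers was not tested. Slc25a40, the second glutathione carrier, had 20, 22.3 and 20.7 CPM against 14.9, 14 and 15.3 CPM, with no overlap (log2 fold change 0.51, standard error 0.08, adjusted p = 0.00111). The ratio of Slc25a39 to Slc25a40 per length was 59.6 ± 13.1 in Sf3b1 K700E/+ and 57.2 ± 9.26 in +/+ (SD, n = 3 each, exact permutation p = 0.900), so the relative level of the pair differed by less than the spread between libraries. Slc25a38, needed for glycine import and mutated in a congenital sideroblastic anemia, had 132, 145 and 155 CPM against 128, 125 and 127 CPM. Its groups did not overlap, but the difference was small and did not pass (log2 fold change 0.18, standard error 0.07, adjusted p = 0.0551). It passed with the replicate number as a block (adjusted p = 0.0156), in edgeR with median-of-ratios scaling (0.0476), in the DESeq2 Wald test (0.0459), and without the Sf3b1 K700E/+ library numbered 1 (0.0171) or both libraries of that number (0.00316), so its call rests on the choice of fit and libraries.

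**Figure D3:**
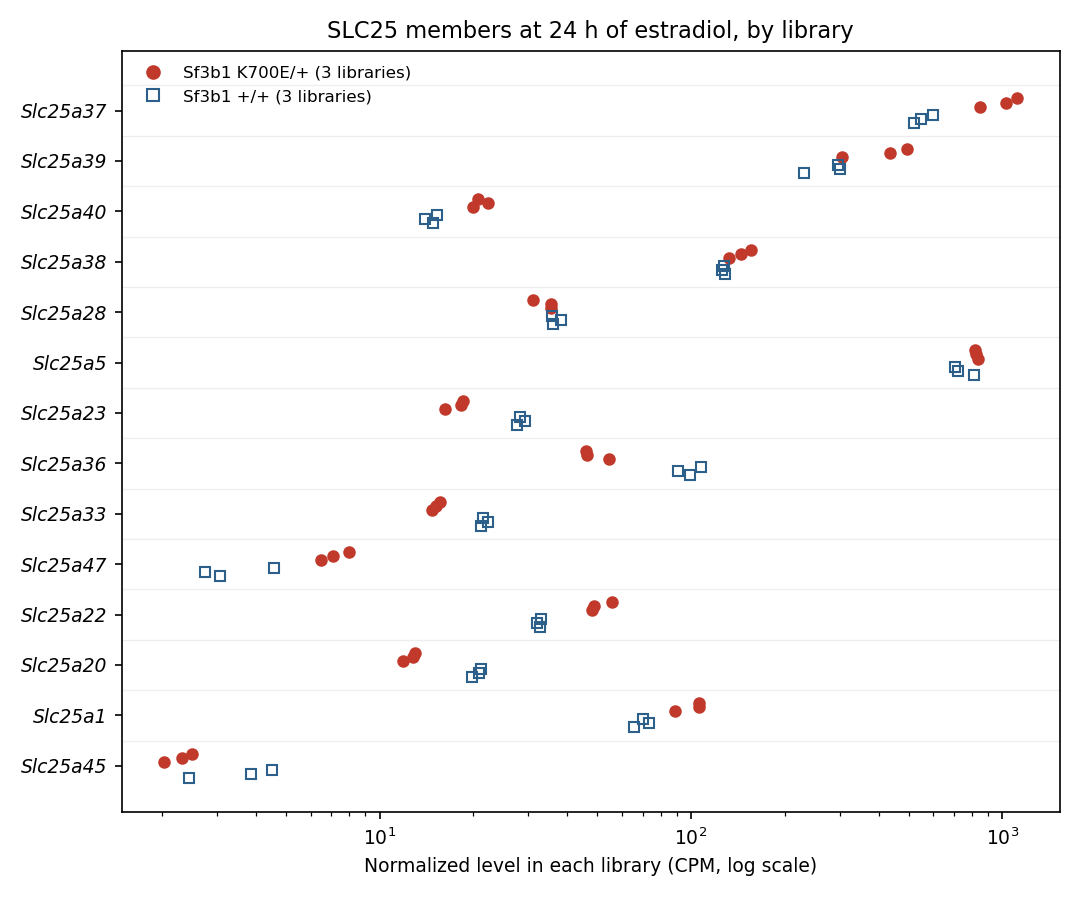
Level of the SLC25 members described one by one, in each library. The horizontal axis is CPM on a log scale, filled circles are the 3 Sf3b1 K700E/+ libraries and open squares the 3 +/+ libraries. The genotypes are apart for Slc25a37, Slc25a36 and Slc25a22, close together for Slc25a28 and Slc25a38, and overlap for Slc25a45.

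**Figure D4:**
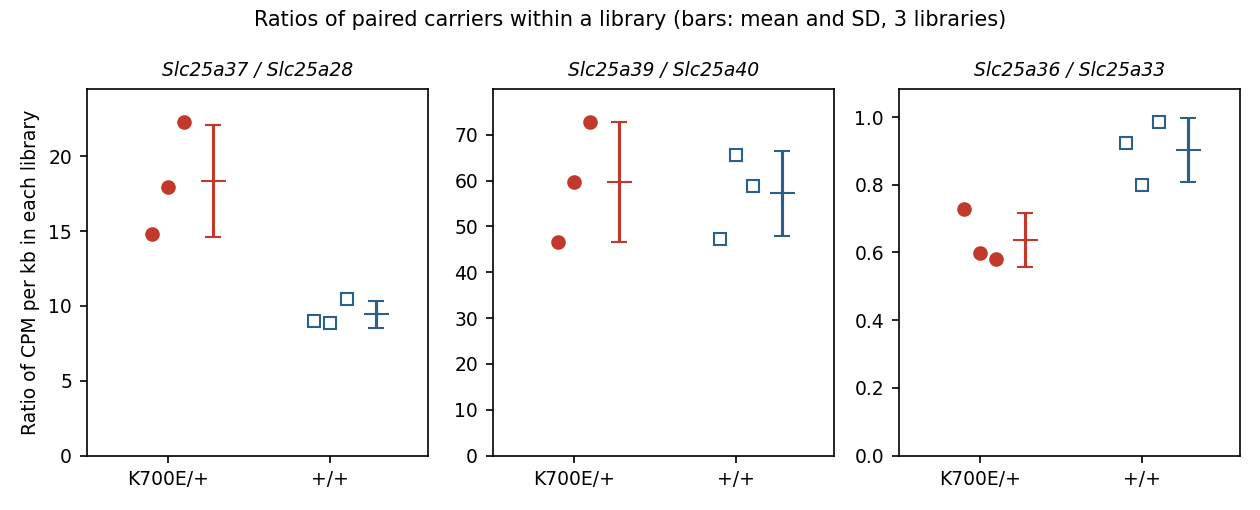
Ratios between paired carriers within each library, as CPM per kb over CPM per kb. Points are libraries, and bars give the mean and SD of the 3 libraries of a genotype. Slc25a37 over Slc25a28 was higher in every Sf3b1 K700E/+ library (14.8 to 22.3 against 8.87 to 10.5), Slc25a39 over Slc25a40 overlapped, and Slc25a36 over Slc25a33 was lower (0.581 to 0.729 against 0.8 to 0.984).

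Adenine nucleotide and phosphate carriers had 4 of 8 members tested, 1 higher and 1 lower (50%, against 44.4% of all genes). Slc25a5, which exchanges ADP for ATP in dividing cells, had 834, 823 and 817 CPM in Sf3b1 K700E/+ and 813, 722 and 704 CPM in +/+. The difference was 0.14 on the log2 scale (standard error 0.07) with an adjusted p of 0.114, and it passed with the replicate number as a block (0.0337) or without the +/+ library numbered 1, alone (0.0121) or together with its Sf3b1 K700E/+ counterpart (0.00571). The heart and muscle form Slc25a4 and the germ-cell form Slc25a31 had no read in any of the 6 libraries, so only 1 of the 3 ADP/ATP carriers of this list was detected. A count of 0 allows up to 0.0599 to 0.0773 CPM per library, for counting error only. Slc25a23, a calcium-regulated exchanger of ATP-Mg for phosphate, had 16.2, 18.3 and 18.5 CPM against 27.7, 29.3 and 28.3 CPM. It was lower in Sf3b1 K700E/+ without overlap (log2 fold change -0.69, standard error 0.08, adjusted p = 0.000166). Its relative Slc25a25 was higher (log2 fold change 0.34, standard error 0.09, adjusted p = 0.0141), a call that was lost without replicate 2 of Sf3b1 K700E/+ (adjusted p = 0.0534) or replicate 3 of +/+ (0.0543). Slc25a25 overlaps Naif1 on the opposite strand, which had 464 to 547 reads, and the counting was not stated to use strand. The phosphate carrier Slc25a3 did not pass (log2 fold change -0.02, adjusted p = 0.828).

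All 10 carriers of nucleotides and cofactors were tested, and 2 were higher and 3 lower (50%, against 44.4% of all genes). The pyrimidine nucleotide carriers, which supply precursors to mitochondrial DNA and RNA, were both among the lower ones. Slc25a36 had 54.6, 46.4 and 46.0 CPM in Sf3b1 K700E/+ and 99.4, 90.9 and 107 CPM in +/+. The +/+ level was 2.02 times that of Sf3b1 K700E/+ with no overlap (log2 fold change -1.02, standard error 0.09, adjusted p = 3.47e-05), the lowest adjusted p of the family. Slc25a33 had 14.7, 15.2 and 15.6 CPM against 21.2, 22.3 and 21.5 CPM (log2 fold change -0.51, standard error 0.08, adjusted p = 0.000636). Both fell, and Slc25a36 by more, since the ratio of Slc25a36 to Slc25a33 per length was 0.637 ± 0.0808 in Sf3b1 K700E/+ and 0.902 ± 0.0937 in +/+ (SD, n = 3 each, exact permutation p = 0.1).

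The promoters of Slc25a36 and Slc25a33 are shown because the pair moved together. The windows run from 250 bases before the start site to 50 after it (RefSeq, GRCm38.p6, chr9:97110992-97111291 and chr4:149774218-149774517, both on the minus strand and written 5′ to 3′ along the transcript), and capitals mark CACGTG, an E-box, which reads the same on both strands.
Slc25a36 promoter: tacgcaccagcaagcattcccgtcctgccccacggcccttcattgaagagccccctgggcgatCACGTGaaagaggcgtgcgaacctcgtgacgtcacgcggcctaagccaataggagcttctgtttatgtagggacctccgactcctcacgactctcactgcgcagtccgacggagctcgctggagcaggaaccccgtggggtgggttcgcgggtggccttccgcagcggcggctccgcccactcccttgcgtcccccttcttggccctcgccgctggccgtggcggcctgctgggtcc
Slc25a33 promoter: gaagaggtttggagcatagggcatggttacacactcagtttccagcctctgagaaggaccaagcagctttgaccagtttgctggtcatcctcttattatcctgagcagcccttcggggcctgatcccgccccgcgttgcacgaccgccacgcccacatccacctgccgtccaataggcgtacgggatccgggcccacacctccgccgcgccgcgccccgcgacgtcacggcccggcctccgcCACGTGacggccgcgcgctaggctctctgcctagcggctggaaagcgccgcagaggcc
The motif begins 187 bases before the start site of Slc25a36 and 8 bases before that of Slc25a33. It is in 7.15% of all 32851 promoter windows of that length and in 8 of the 46 windows of members (17.4%). By gene, it is in a window of 7 of the 36 members that have one in the table. Those 7 are 1 of 8 higher members (Slc25a1) and 2 of 6 lower members (Slc25a33 and Slc25a36). The rest are 3 of 14 uncalled members (Slc25a13, Slc25a14 and Slc25a15) and 1 of 8 untested members (Slc25a31). The motif thus lay in promoters of members of every kind. GATA with A or T before it and A or G after it, on either strand, was in 10 of the 46 windows of members (21.7%) and in 29.8% of all windows. By gene, it was in a window of 9 of the 36 members, among them 1 of 8 higher members (Slc25a22) and 1 of 6 lower members (Slc25a23). A share by gene over all genes was not computed for either motif. No window was given for 11 members, Slc25a37 among them. The motifs were chosen after the differences had been seen.

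Slc25a47, described as a carrier of hepatocyte mitochondria, was the other member past 2-fold. It had 6.50, 7.08 and 8 CPM in Sf3b1 K700E/+ and 3.07, 2.76 and 4.58 CPM in +/+, without overlap (log2 fold change 1.05, standard error 0.19, adjusted p = 0.00207). At 1.79 CPM per kb it stood in position 32 of the family. Its fold change is close to the 2-fold limit, as is that of Slc25a36, and the count of members past that limit was 0 without replicate 3 of Sf3b1 K700E/+, 1 without replicate 2 of Sf3b1 K700E/+ or any one of the +/+ libraries, and 2 without replicate 1 of Sf3b1 K700E/+. The peroxisomal carrier Slc25a17 was higher (log2 fold change 0.35, standard error 0.06, adjusted p = 0.000966), and Slc25a16, linked to coenzyme A uptake, was lower (log2 fold change -0.42, standard error 0.09, adjusted p = 0.00464). The remaining 5, among them carriers of NAD, coenzyme A, S-adenosylmethionine and folate, lay between -0.16 and 0.20 on the log2 scale. Of these, the NAD carrier Slc25a51 (adjusted p = 0.226, with the replicate block 0.0200) and the folate carrier Slc25a32 (0.273, with the block 0.0101) passed with the block, and both also passed without the +/+ library numbered 1 (0.0392 and 0.0257).

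Amino acid and carnitine carriers had 7 of 10 members tested, 1 higher and 1 lower (28.6%, against 44.4% of all genes). Slc25a22, which carries glutamate with a proton, had 48.1, 48.7 and 55.6 CPM in Sf3b1 K700E/+ and 32.8, 32.1 and 33.0 CPM in +/+. The groups were well apart (log2 fold change 0.64, standard error 0.07, adjusted p = 0.000146). Slc25a20, which exchanges carnitine for acylcarnitines on the way to fatty acid oxidation, had 11.9, 12.8 and 13 CPM against 19.8, 20.9 and 21.1 CPM. It was lower in every Sf3b1 K700E/+ library (log2 fold change -0.71, standard error 0.08, adjusted p = 0.000160). The 5 others, carriers of aspartate, ornithine, basic and branched-chain amino acids, lay between -0.07 and 0.27. The one with the lowest adjusted p was the ornithine carrier Slc25a15, whose Sf3b1 K700E/+ and +/+ libraries overlapped (41.9, 33.5 and 31.9 against 36.9, 25.9 and 26.0 CPM, adjusted p = 0.178), because the library numbered 1 was the highest in each genotype. With the replicate block its adjusted p was 0.00207, without the +/+ library numbered 1 it was 0.00699, and without both libraries of that number it was 0.00191. Slc25a29 was next (log2 fold change 0.17, adjusted p = 0.459).

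Among the 4 carriers of citrate, dicarboxylates and oxo acids, only Slc25a1 passed (25%, against 44.4% of all genes). This citrate exporter, which feeds acetyl units to the cytosol, had 88.9, 106 and 106 CPM in Sf3b1 K700E/+ and 65.7, 73.5 and 70.3 CPM in +/+ (log2 fold change 0.52, standard error 0.08, adjusted p = 0.000910). The other three, Slc25a10, Slc25a11 and Slc25a21, lay between -0.01 and 0.06, with an adjusted p of 0.454 for Slc25a21 and 0.600 for Slc25a11, and their Sf3b1 K700E/+ and +/+ libraries overlapped.

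The carriers related to uncoupling proteins had 2 members tested, of which 1 passed (50%, against 44.4% of all genes). Slc25a30 was higher (17.6, 17.5 and 16.8 against 15.8, 13 and 12.6 CPM, log2 fold change 0.32, standard error 0.10, adjusted p = 0.0316), but the adjusted p was 0.0577 to 0.110 without any one library other than the +/+ library numbered 1, so the call needs those 5 libraries. Slc25a14 did not pass (log2 fold change -0.15, adjusted p = 0.371). Of the 4 tested members for which no substrate was used here, none was higher and 2 were lower (50%, against 44.4% of all genes). Slc25a46, an outer-membrane protein of mitochondrial fission and lipid transfer, was lower by a log2 fold change of -0.36 (SE 0.07, adjusted p = 0.00385). Slc25a45 had 2.04, 2.32 and 2.50 CPM in Sf3b1 K700E/+ and 2.44, 3.85 and 4.53 CPM in +/+. It was the only called member whose genotypes overlapped (log2 fold change -0.66, standard error 0.23, adjusted p = 0.0395), and the call was lost without any library except the +/+ library numbered 1, at an adjusted p of 0.107, 0.0941 and 0.0660 without replicates 1, 2 and 3 of Sf3b1 K700E/+ and of 0.111 and 0.154 without replicates 2 and 3 of +/+. Slc25a35, at about 1 CPM, did not pass (log2 fold change -0.49, adjusted p = 0.0923, with the replicate block 0.0497), and it overlaps Rangrf on the opposite strand, which had 494 to 1061 reads and was higher.

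The 11 members that were not tested had few reads or none. Slc25a4, Slc25a24, Slc25a27, Slc25a31, Slc25a43, Slc25a48 and Slc25a54 had 0 reads in all 6 libraries, as did 33864 genes of the table. Slc25a34 and Slc25a41 had at most 1 read in any library, Slc25a18 had 2 to 8 reads and Slc25a2 had 5 to 18 reads. No difference between the genotypes was detectable for these at this depth.

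Splicing was measured as PSI, the share of length-scaled reads on the longer of 2 paths, which is the path that keeps the exon or intron. Of the 40 events of members, 37 had 1 position and a splicing type, and 34 events in 16 members reached 10 reads, both paths together, in each of the 6 libraries. These comprise 12 retained introns, 10 skipped exons, 3 events of several skipped exons, 6 alternative acceptors and 3 alternative donors. One event passed an adjusted p under 0.05 with a PSI difference over 0.10, 1 of 34, where 6.31% of all 17656 tested events did. The median absolute PSI difference was 0.0267 over the member events and 0.0365 over all events, and 26 of the 34 member events differed by less than 0.05.

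The event that passed was a retained intron of 523 bases in Slc25a22, at chr7:141012013-141012616 (GRCm39, event bounds with flanking bases, minus strand), between 2 known splice sites and in the coding part, where its retention shifts the frame. Its PSI was 0.222, 0.197 and 0.184 in Sf3b1 K700E/+ and 0.323, 0.350 and 0.245 in +/+. All Sf3b1 K700E/+ libraries were below all +/+ libraries, so less of the intron was retained where the gene's level was higher (PSI difference -0.105, adjusted p = 0.0348, 164 to 328 reads per library). The PSI difference lies just past the limit of 0.10, the adjusted p was 0.207 in limma on logit PSI, 0.105 with reads over splice sites only and up to 0.174 without 1 library, and the file marks a SNP in the intron. The event fell short of a limit without replicate 2 or 3 of Sf3b1 K700E/+, without replicate 1 or 2 of +/+, and without both libraries numbered 1. The ends of this intron are shown because SF3B1 acts at the 3′ end of introns, where it binds around the branch site. They were read from a GENCODE M21 transcript of Slc25a22 that keeps its only annotated intron of 523 bases (GRCm38, chr7:141432623-141432662 for the first 40 bases and chr7:141432140-141432259 for the last 120, minus strand, 5′ to 3′), with the GT and AG that bound it in capitals.
Slc25a22 intron first 40 bases: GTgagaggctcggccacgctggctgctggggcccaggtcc
Slc25a22 intron last 120 bases: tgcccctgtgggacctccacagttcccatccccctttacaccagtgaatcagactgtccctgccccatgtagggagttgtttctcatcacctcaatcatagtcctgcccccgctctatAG
Of its bases 59.1% are G or C. The other 5 tested events of Slc25a22, 4 retained introns and an alternative acceptor, did not pass (adjusted p of at least 0.539), so the difference was found in 1 of its 6 tested events.

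A second event had an adjusted p under 0.05 with a small difference, as 9.52% of all tested events did at any size of difference. In Slc25a39, exon 11 of 12 in a GENCODE M21 transcript, an exon of 81 bases that keeps the reading frame, was included at a PSI of 0.905, 0.935 and 0.932 in Sf3b1 K700E/+ and 0.932, 0.961 and 0.959 in +/+. The genotypes overlapped slightly, and the difference was -0.0268 (adjusted p = 0.0352, in limma on logit PSI 0.330, 2071 to 4969 reads per library, event bounds chr11:102294323-102294657 in GRCm39, minus strand). The adjusted p was up to 0.217 with 1 library left out and no longer passed without replicate 1 or 3 of Sf3b1 K700E/+ or replicate 2 or 3 of +/+. The exon is given with 20 bases of the neighbouring exons on each side, exon in capitals (GRCm38, chr11:102403633-102403713, 5′ to 3′ along the transcript).
Slc25a39 exon: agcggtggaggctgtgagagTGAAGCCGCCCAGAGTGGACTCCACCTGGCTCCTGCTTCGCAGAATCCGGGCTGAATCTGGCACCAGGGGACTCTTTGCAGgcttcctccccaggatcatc
The exon adds 27 codons. In the same gene and libraries the level rose by 0.58 on the log2 scale while 90.5% to 96.1% of the length-scaled reads kept the exon.

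Slc25a38 had the most events, 8 of the 34, around an alternative exon that is 73 or 123 bases long and a following intron. None passed. The largest PSI difference of any member event that did not pass was here, for the retention of 407 bases upstream of the exon, with PSI of 1.00, 0.868 and 0.946 in Sf3b1 K700E/+ and 0.745, 0.749 and 0.863 in +/+ (difference 0.152, adjusted p = 0.174, 84 to 121 reads over both paths). Its shorter path had only 0, 2 and 1 reads in Sf3b1 K700E/+ and 5, 5 and 3 in +/+, so the difference rests on few reads. The genotypes were apart by little and the spread within each was wide. Retention of 251 bases downstream ran the other way, with 0.941, 0.932 and 0.864 against 0.988, 0.974 and 0.937 (difference -0.0541, adjusted p = 0.0993). Its shorter path had 7, 12 and 19 reads against 1, 3 and 7. Inclusion of the exon itself was 0.212, 0.228 and 0.244 against 0.147, 0.239 and 0.227 for its longer form and 0.263, 0.306 and 0.288 against 0.206, 0.321 and 0.272 for its shorter form, overlapping in both (adjusted p = 0.635 and 0.778). The exon is shown with the 50 bases that only the longer form holds in capitals (GENCODE M21, GRCm38, chr9:120119883-120120005, plus strand).
Slc25a38 exon: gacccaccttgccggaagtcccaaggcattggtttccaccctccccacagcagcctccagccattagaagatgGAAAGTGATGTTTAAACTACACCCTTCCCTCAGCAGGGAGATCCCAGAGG
Its donor choice, longer against shorter form, was 0.389, 0.294 and 0.426 in Sf3b1 K700E/+ and 0.307, 0.284 and 0.414 in +/+, with overlap (adjusted p = 0.767).

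**Figure D5:**
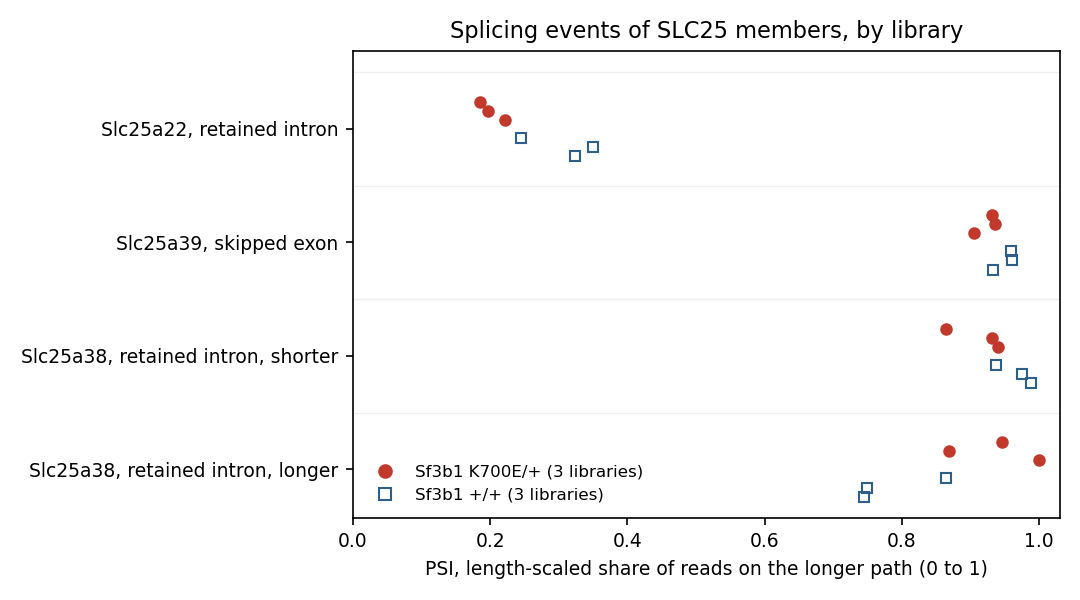
PSI of 4 splicing events of SLC25 members in each library. The horizontal axis is the length-scaled share of reads on the longer path, filled circles are the 3 Sf3b1 K700E/+ libraries and open squares the 3 +/+ libraries. The Slc25a22 intron (0.184 to 0.222 against 0.245 to 0.350) passed both limits, the Slc25a39 exon passed the adjusted p alone, and the others passed neither.

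Slc25a37, the most changed iron carrier, had 1 tested event, retention of a known intron of 1244 bases, at 0.887, 0.889 and 0.873 against 0.904, 0.904 and 0.921, which did not pass (difference -0.0266, adjusted p = 0.190, 6253 to 13335 reads over both paths). The path without the intron had only 102, 103 and 117 of these reads in Sf3b1 K700E/+ and 41, 43 and 38 in +/+. This event is marked as outside the coding part. Slc25a36, which fell most, had 1 tested event, an exon of 103 bases with 3 of its 4 splice sites annotated, at 0.168, 0.113 and 0.197 against 0.208, 0.288 and 0.196 (difference -0.0714, adjusted p = 0.222), and Slc25a23 had 1, at a difference of -0.0639 (adjusted p = 0.459). Of the 16 members with a changed level, 6 had a tested event, and of all 36 members tested for level, 16 had one.

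Genes around the carriers were read from 5 further lists, where 44.4% of all tested genes is again the background. The SLC25-fold proteins with other symbols had 3 of 5 genes tested, and Ucp2, the uncoupling protein of blood cells, was higher, with 2583, 3166 and 3394 CPM against 1684, 2015 and 1974 CPM (log2 fold change 0.69, adjusted p = 0.00102), while Mtch1 and Mtch2 did not pass. In the machinery that imports carriers, 9 of 18 tested genes were higher and 2 lower (61.1%, median log2 fold change 0.16). Tomm40, the pore of the outer membrane, had 286, 266 and 255 CPM against 183, 150 and 135 CPM (log2 fold change 0.78), and the small chaperone Timm10 was higher by 0.45, whereas Tomm70a, the receptor that takes up carrier precursors, was lower (221, 199 and 199 against 318, 257 and 268 CPM, log2 fold change -0.44, adjusted p = 0.00308), as was Timm17b (-0.84).

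Other mitochondrial transporters changed in both directions, 6 of 19 tested genes higher and 8 lower (73.7%, median log2 fold change -0.15). Vdac1, the main pore for metabolites in the outer membrane, had 105, 93.0 and 90.5 CPM against 272, 232 and 232 CPM (log2 fold change -1.35, adjusted p = 5.78e-06), and the sideroflexin Sfxn3 was lower by a like amount (-1.30). Abcb10, which stabilises Slc25a37 in the inner membrane, had 1011, 1005 and 1100 CPM against 636, 621 and 666 CPM (log2 fold change 0.70), so this pair was higher together, and Micu2, a regulator of calcium uptake, was higher by 0.54.

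Genes that use what the carriers bring in were read last. Of 16 tested genes that use mitochondrial iron or glycine, 7 were higher and 2 lower (56.2%, median log2 fold change 0.20). Cpox, of the later steps of heme synthesis, was higher by 0.37, Glrx5, which passes on iron-sulfur clusters, by 0.32, and Shmt2, which makes glycine in mitochondria, by 0.27, whereas Ppox was lower (log2 fold change -0.41). In the list of glutathione synthesis and control of Slc25a39, 3 of 9 tested genes were higher and 3 lower (66.7%). Gclc, the catalytic subunit of the first step of glutathione synthesis, had 211, 208 and 204 CPM against 115, 101 and 99.5 CPM (log2 fold change 0.98, adjusted p = 9.03e-06), and its modifier subunit Gclm was higher by 0.46. The mitochondrial glutaredoxin Glrx2 was higher by 0.43, and glutathione reductase Gsr was lower (log2 fold change -0.36).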

How the data were processed

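RNA-seq libraries of the 2 genotypes at 24 h were used, and libraries at 0 h were not analysed here. The deposited gene table holds read counts per gene, made by the authors with STAR 2.7.9 on GRCm39 (DESeq2 1.30.1 is named in the labels; the counting tool is not given in the sources used here). The deposited event table holds counts of reads on each path of a splicing event, made by the authors with KisSplice and KisSplice2refgenome. Columns of the authors' own comparisons (PSI differences, fold changes and p-values) were not used.

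Counts were filtered with filterByExpr, scaled by TMM and tested with edgeR 4.0.16 (quasi-likelihood F test, R 4.3.3, Benjamini-Hochberg adjustment over all 12547 genes). Events were tested on path counts in edgeR over all 17656 events. All adjusted p-values are from these fits unless DESeq2 1.42.0 or limma 3.58.1 is named. Ratios and sums were compared by two-sided exact permutation tests. The members and gene lists were chosen with earlier results of these data known. Named in full were members with an adjusted p under 0.05 and an absolute log2 fold change over 0.5, the iron, glycine and glutathione carriers and the ADP/ATP carriers, then up to 2 others of each role group and up to 4 genes of each other list by lowest adjusted p, the passing event and the largest that did not pass. Other members and events described, and the motifs, were chosen after their values were seen. Scripts were tested on simulated data. Same-numbered libraries deviated together (correlations 0.627, 0.484 and 0.480 over 8771 genes), so the replicate number was used as a block in an alternative fit. Replicate 3 of Sf3b1 K700E/+ with replicate 2 of +/+ gave 0.249, and replicate 2 of Sf3b1 K700E/+ with replicate 3 of +/+ gave 0.197. A library numbered 1 with one of another number gave -0.422 to -0.505. Intervals and floors cover counting error only. Sequences came from RefSeq windows (GRCm38.p6) and GENCODE M21, and no coordinate was converted between builds. One carrier is counted among the members but not reported here by name.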

Additional observations from a re-analysis of the deposited data

How the results depend on the processing

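Of 398 recomputed values, 350 kept their direction and their side of the threshold or stayed within 1.5 times the count. Leaving out 1 library gave 6 to 12 members higher, 6 to 8 lower and 0 to 2 past 2-fold, while 34.4% to 49.4% of all genes passed. With the replicate number as a block, 13 members were higher and 9 lower, while 56.9% of all genes passed, and the 16 members called without the block were kept. Leaving out both libraries numbered 1, an alternative chosen after seeing the data, gave 13 higher and 7 lower, while 52.2% of all genes passed. Median-of-ratios scaling and DESeq2 each gave 10 higher and 7 lower. The direction of Slc25a3, -0.02 with all libraries, was positive without replicate 2 of Sf3b1 K700E/+ (0.020), without replicate 1 of +/+ and without both libraries numbered 1 (0.030), and ran from -0.052 to 0.053 over single libraries left out. Slc25a11 ran from -9.71e-05, without replicate 1 of +/+, to 0.091. The count of changed member events was 1 in the block fit and 0 with a PSI difference over 0.20, in limma, without complex, paralog or SNP events, with reads over splice sites only and without both libraries numbered 1, and it was 0 to 1 when 1 library was left out. Over all events these settings called 468, 554, 347 of only 6998 tested, 1027 and 813, in that order, against 1114 of 17656. The cause was not tested. Path counts under about 100 reads limit the smaller PSI differences.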
